A study of Homo sapiens with 32 samples.

Results

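The genes described here are 38 protein coding members of the cadherin superfamily, measured by RNA sequencing in HEK293T cells, an established human embryonic kidney line. They were chosen by symbol and read number. A member's symbol begins with PCDH, or is CDH followed by a number, or is one of FAT1 to FAT4, DCHS1, DCHS2 and CELSR1 to CELSR3, and the gene has at least 10 reads in at least 6 of the 32 libraries. The rule itself uses no difference between groups, but the members were chosen with earlier results of these data known. Of 98 protein coding family genes, 60 were below the read minimum, and 43 of those were clustered protocadherins. The members are 11 cadherins (CDH1, CDH2, CDH3, CDH4, CDH10, CDH12, CDH15, CDH22, CDH23, CDH24 and CDH26), FAT1, FAT3, FAT4, DCHS1, DCHS2, CELSR1, CELSR2, CELSR3 and 19 protocadherins. FAT2 is not a member. Among the protocadherins, 9 are single genes (PCDH1, PCDH7, PCDH8, PCDH9, PCDH10, PCDH17, PCDH18, PCDH19 and PCDH20) and 10 belong to the clusters on chromosome 5 (PCDHA10, PCDHB2, PCDHB14, PCDHB15, PCDHGA6, PCDHGA7, PCDHGA11, PCDHGB7, PCDHGC3 and PCDHGC4).

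The series asks how N6-methyladenosine (m6A) in coding sequence affects transcript levels, and whether the m6A reader YTHDF2 and ongoing translation take part. STM2457 inhibits METTL3, the enzyme that writes m6A on messenger RNA. It was given at 20 µM in 0.2% DMSO, and the control groups received 0.2% DMSO alone. The knockdown experiment has 4 groups of 3 libraries, all treated for 6 h: DMSO, STM2457, DMSO with 20 nM YTHDF2 siRNA, and STM2457 with 20 nM YTHDF2 siRNA. The siRNA was transfected 24 h after seeding, treatment began 42 h after transfection, and cells were harvested at 48 h. The 9 h experiment compares 4 DMSO with 4 STM2457 libraries. The emetine experiment has 4 groups of 3 libraries, all treated for 6 h: DMSO, STM2457, DMSO with emetine and STM2457 with emetine. Emetine, an inhibitor of translation elongation, was present at 1.8 µM for the last 2 h. The groups without emetine are labelled as given DMSO for 2 h in its place. Cells without siRNA are labelled WT, and the labels do not say whether they received a control siRNA. The labels name no separate cultures for the replicates, so p-values measure the spread between these libraries, which may be technical.

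Cadherins are transmembrane proteins whose extracellular repeats bind calcium and, in most members, the same cadherin on a neighbouring cell. Classical cadherins such as CDH1 (E-cadherin) and CDH2 (N-cadherin) bind catenins, which tie them to actin. FAT and DCHS proteins are giant cadherins that bind each other across cell borders and act in planar cell polarity and Hippo signalling, and the CELSR proteins are the adhesion receptors at the core of planar cell polarity. The delta protocadherins, most of them expressed in the nervous system, guide neurite growth and cell sorting. The clustered protocadherins give neurons a surface identity: each isoform has its own promoter and its own large first exon, spliced in the alpha and gamma clusters to constant exons. Most of those promoters share a conserved element with a CGCT core and are contacted by CTCF and cohesin.

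Sequence is shown for the member that rose most with STM2457 and for the gamma cluster, 4 of whose 6 members fell at 6 h in the knockdown experiment. METTL3 methylates adenosines within the consensus DRACH, of which GGACT (in DNA letters) is a common form. Coding sequence of the GENCODE 29 transcripts, which are on build GRCh38.p12, was searched for GGACT on the transcript strand. PCDH10 holds 9 matches in 3120 coding bases, 2.88 per kb, more than 94.2% of the 13557 protein coding genes tested. The members had a median of 1.43 per kb, against 0.986 per kb over those genes. At least 1 match was present in 37 of the 38 members and in 75.9% of those genes; PCDHA10 had none. PCDHGC3 holds 6 matches and PCDHGC4 holds 5. The 25-base windows below carry the motif in capitals. The first 4 come from PCDH10 (plus strand), the fifth from the first exon of PCDHGC3, and the last from a constant exon that PCDHGC3, PCDHGC4 and PCDHGA11 share.
PCDH10 chr4:133150853-133150877: tccgagtgctGGACTccaatgacaa
PCDH10 chr4:133151034-133151058: ggagcttttcGGACTctcgccgcgc
PCDH10 chr4:133151078-133151102: gcggcgagttGGACTatgaagagag
PCDH10 chr4:133163103-133163127: ttcctggcatGGACTctgttccaga
PCDHGC3 chr5:141477036-141477060: agggtcggctGGACTtcgaggacac
PCDHG constant exon chr5:141494814-141494838: cgcccaacacGGACTggcgtttctc
A match is a string of letters and not a measured site, and the files analysed here hold no m6A measurement.

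Promoters of the clustered members were searched for CGCT from 90 to 30 bases before the RefSeq start (build GRCh38.p14, coding strand). Each of the 10 clustered members had a match, and PCDHGC3 had 2. CGCT in the same window was present in 19.28% of 27305 promoters on the coding strand and in 32.84% on either strand. A CGCT match alone therefore does not show that a promoter holds the conserved element. The windows below are those of gamma cluster members that passed the test in at least 1 comparison, all on the plus strand, with CGCT in capitals.
PCDHGA7 chr5:141382655-141382678: ctcacagcgcCGCTgttcaccaac
PCDHGB7 chr5:141417613-141417636: gcagagcaagCGCTgacgccgggg
PCDHGA11 chr5:141420978-141421001: ctctaggcgcCGCTgctcaccaat
PCDHGC3 chr5:141475886-141475909: ctctgtgtgcCGCTgtcggccaat
PCDHGC4 chr5:141484958-141484981: gcccgggagcCGCTgtctgccaat

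Read totals over genes ran from 37694945 to 42303951 in the knockdown experiment, from 22510323 to 34677704 at 9 h and from 21781514 to 28053353 in the emetine experiment. Of 8 HEK293-like markers (kidney precursor and neuronal filament genes), 7 averaged at least 1 CPM (the count scaled to a fixed library size), with PAX8 at 0.0362, and their summed level was 741.8 to 1430 CPM over the libraries. Hepatocyte markers summed to at most 0.436 CPM and blood markers to at most 3.00 CPM. Fibroblast markers summed to 19.4 to 32.3 CPM and keratinocyte markers to 20.0 to 40.5 CPM, of which KRT10 alone averaged 24.2. Their part in the results was not tested. YTHDF2 was at 179, 182 and 174 CPM in the DMSO libraries of the knockdown experiment and at 44.5, 43.1 and 42.2 CPM with its siRNA (log2 change -2.04 ± 0.06 SE, adjusted p = 8.2e-15). STM2457 itself raised YTHDF2 (log2 change 1.79 at 6 h in the knockdown experiment, 1.45 at 9 h). In bulk samples, fewer cells of a type and less RNA per cell cannot be told apart.

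Per kb of exon not shared with another gene, and averaged over the 3 DMSO groups without siRNA, CDH2 stood highest at 27.5 CPM per kb. PCDH10 followed at 7.79, FAT1 at 5.54, CELSR2 at 4.43, PCDH9 at 4.19, PCDH7 at 3.47 and CELSR1 at 3.43. Among the clustered genes PCDHGA11 (1.79) and PCDHGC3 (1.57) were highest, and PCDHGA6 (0.0334) was the lowest of all members. N-cadherin is thus the main classical cadherin transcript here, with CDH1 at 0.966 CPM per kb. The 6 gamma members share 2181 exon bases of the constant exons with 21 genes, 40.2% of the exon bases of PCDHGC3, and the counting rule for reads in them is not given in the sources used here. PCDHA10 shares 5222 of its 15224 exon bases with 15 genes, and PCDH20 shares 4577 of 4778 with AL592490.1. Values for all of these are therefore uncertain as single-isoform levels. Those of PCDHB14, PCDHB15 and CDH23 also depend on the counting rule and the strand setting, which are not given. At the read minimum, PCDH20 was just inside with at least 10 reads in 7 libraries, PCDHGA6 in 8 and PCDHB14 in 10, and CDH18, PCDHB13, PCDHB12 and PCDHGA10 were just outside with 5, 5, 4 and 4 libraries.

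**Figure D1:**
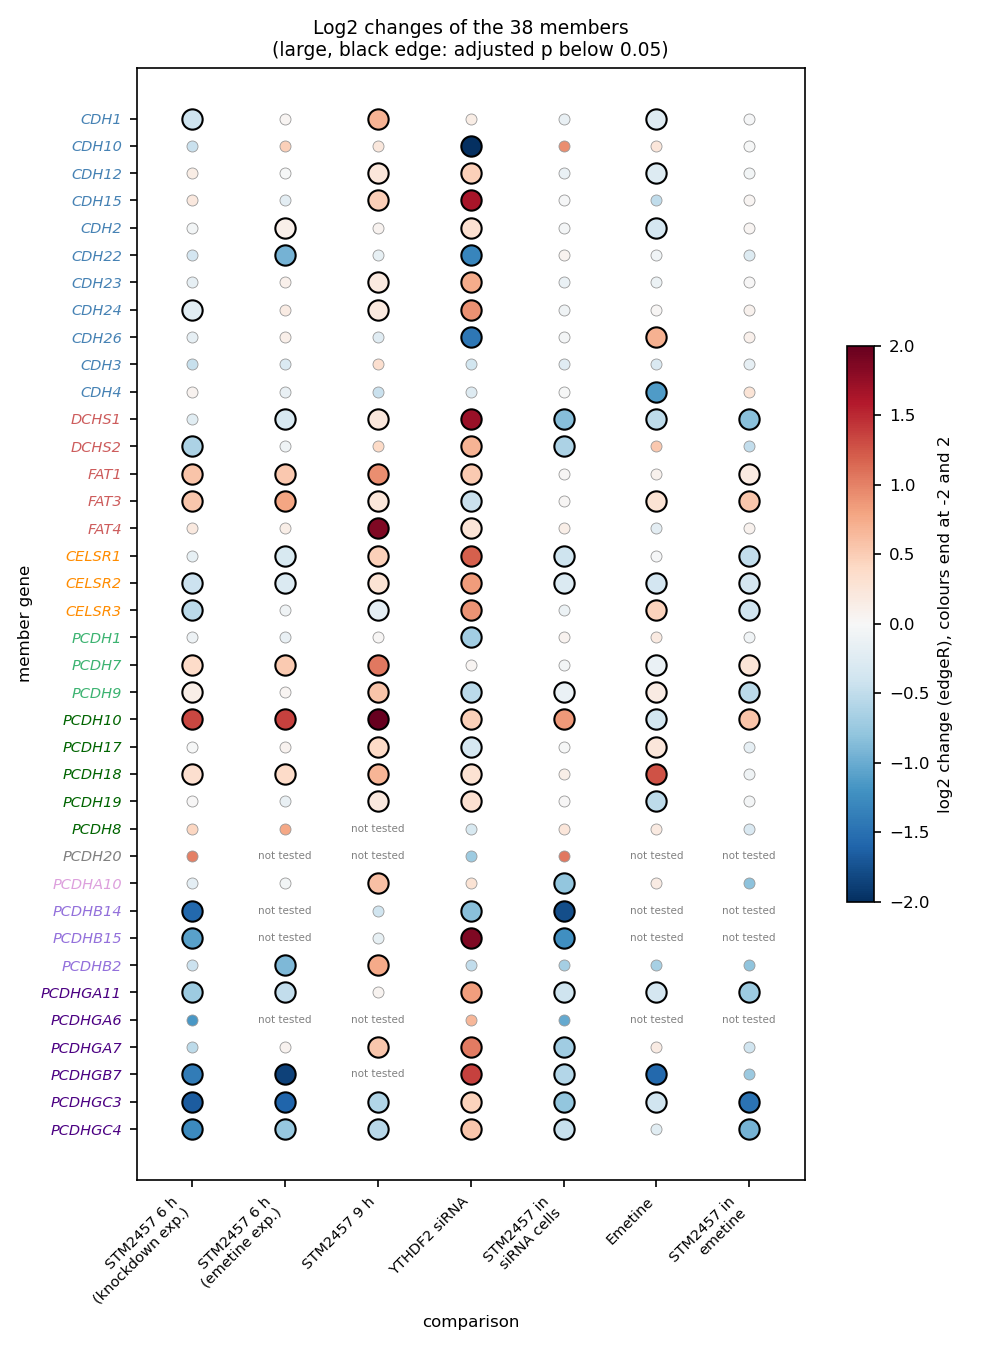
Log2 change (edgeR, colour, scale ending at -2 and 2) of each of the 38 members (rows, coloured by subfamily) in the 7 comparisons of groups (columns). Large points with a black edge had an adjusted p below 0.05; PCDH10 is red in every column but emetine, and PCDHGC3 is blue in every column but YTHDF2 siRNA. Under ribosomal protein or spike-in scaling the emetine change of both genes was slightly above 0.

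METTL3 inhibition for 6 h moved the members apart. PCDH10 and, by less, FAT1, FAT3 and PCDH7 rose, while 6 of 10 clustered protocadherins fell, PCDHGC3 and PCDHGC4 among them. In the knockdown experiment 6 of 38 members were higher and 11 lower at an adjusted p below 0.05, where 22.9% of all 16662 genes tested were higher and 22.1% lower. The members' median log2 change was -0.19, against -0.02 over all genes. In the emetine experiment, whose libraries are separate, 6 of 34 members tested were higher and 9 lower, against 26.0% and 21.9% of all genes. The share of members higher was thus below the background in both experiments, and the share lower was above it. Without the clustered protocadherins, 6 of 28 members were higher and 5 lower in the knockdown experiment. In the emetine experiment 6 of 27 were then higher and 4 lower. The share lower was then below the background in both experiments. With all members it was 28.9% and 26.5%, a small excess that was not tested. Leaving out single libraries gave 8 to 14 and 7 to 10 members lower. The gamma members share constant exons, so their calls may not be independent.

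PCDH10, a delta2 protocadherin that recruits WAVE actin regulators, lies at chr4:133149315-133208606 on the plus strand (GRCh38.p12). It was at 88.2, 81.0 and 82.3 CPM in the DMSO libraries of the knockdown experiment and at 229.6, 217 and 188 CPM with STM2457. In the emetine experiment it was at 73.8, 72.0 and 73.4 CPM in DMSO and at 193, 174 and 198 CPM with STM2457. The groups did not overlap in either experiment. The log2 change was 1.34 ± 0.07 (SE, adjusted p = 4e-11), or 2.52-fold, in the knockdown experiment and 1.37 ± 0.04 (adjusted p = 5.3e-23) in the emetine experiment. Scaled to the spike-in RNA in place of the default factors it was 0.98 and 1.23, still past the threshold.

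The other single protocadherins moved less. PCDH7, a delta1 protocadherin, was at 42.5, 39.6 and 37.6 CPM in DMSO and at 55.0, 53.3 and 47.8 CPM with STM2457 in the knockdown experiment, which is a log2 change of 0.38 ± 0.06. In the emetine experiment its log2 change was 0.52 ± 0.05. PCDH18 changed by 0.34 ± 0.11 and 0.39 ± 0.12 on the log2 scale in the 2 experiments, with groups that overlapped in the first. The PCDH18 call in the knockdown experiment was lost without DMSO replicate 2 (0.28), STM2457 replicate 1 (0.21) or STM2457 replicate 2 (0.28), and that in the emetine experiment without DMSO replicate 2 (0.26) or STM2457 replicate 1 (0.25). PCDH9 was called higher in the knockdown experiment at a log2 change of 0.13 ± 0.05, and this call was lost without DMSO replicate 2 (0.11) or 3 (0.08) or STM2457 replicate 1 (0.12) or 2 (0.11), and without the low-count filter (adjusted p = 0.11). Of the 9 single protocadherins, 4 rose and 0 fell in the knockdown experiment (median log2 change 0.34, 0.10 with ribosomal protein scaling and -0.01 with spike-in scaling). At an unadjusted p below 0.05, PCDH20 would have been added to those that rose (log2 change 1.01 ± 0.47, adjusted p = 0.092), and no single protocadherin fell under edgeR.

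FAT1 and FAT3, both giant cadherins, rose in both experiments, and DCHS1 and the CELSR genes were not raised in either. FAT1 was at 63.6, 63.4 and 65.2 CPM in DMSO and at 101, 94.9 and 90.8 CPM with STM2457 in the knockdown experiment (log2 change 0.58 ± 0.07, adjusted p = 4e-06), with no overlap. In the emetine experiment its log2 change was 0.54 ± 0.05. FAT3 changed by 0.55 ± 0.10 and 0.79 ± 0.12, and FAT4 by 0.20 ± 0.10 (adjusted p = 0.12) and 0.13 ± 0.09 (adjusted p = 0.26). DCHS1, a ligand of FAT4, was lower in the emetine experiment (log2 change -0.33 ± 0.10) and at -0.23 ± 0.10 in the knockdown experiment (adjusted p = 0.075). DCHS2 fell in the knockdown experiment (-0.63 ± 0.18). Of the CELSR receptors, CELSR2 fell in both (-0.43 ± 0.08 and -0.29 ± 0.05), CELSR3 in the knockdown experiment (-0.54 ± 0.11) and CELSR1 in the emetine experiment (-0.32 ± 0.05). Spike-in scaling ended the FAT1 call of the knockdown experiment (0.21, adjusted p = 0.37), and both spike-in and ribosomal protein scaling ended those of FAT3 (0.20 and 0.30), PCDH7 (0.03 and 0.13) and PCDH18 (-0.01 and 0.10). PCDH9 turned to -0.23 and -0.12.

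**Figure D2:**
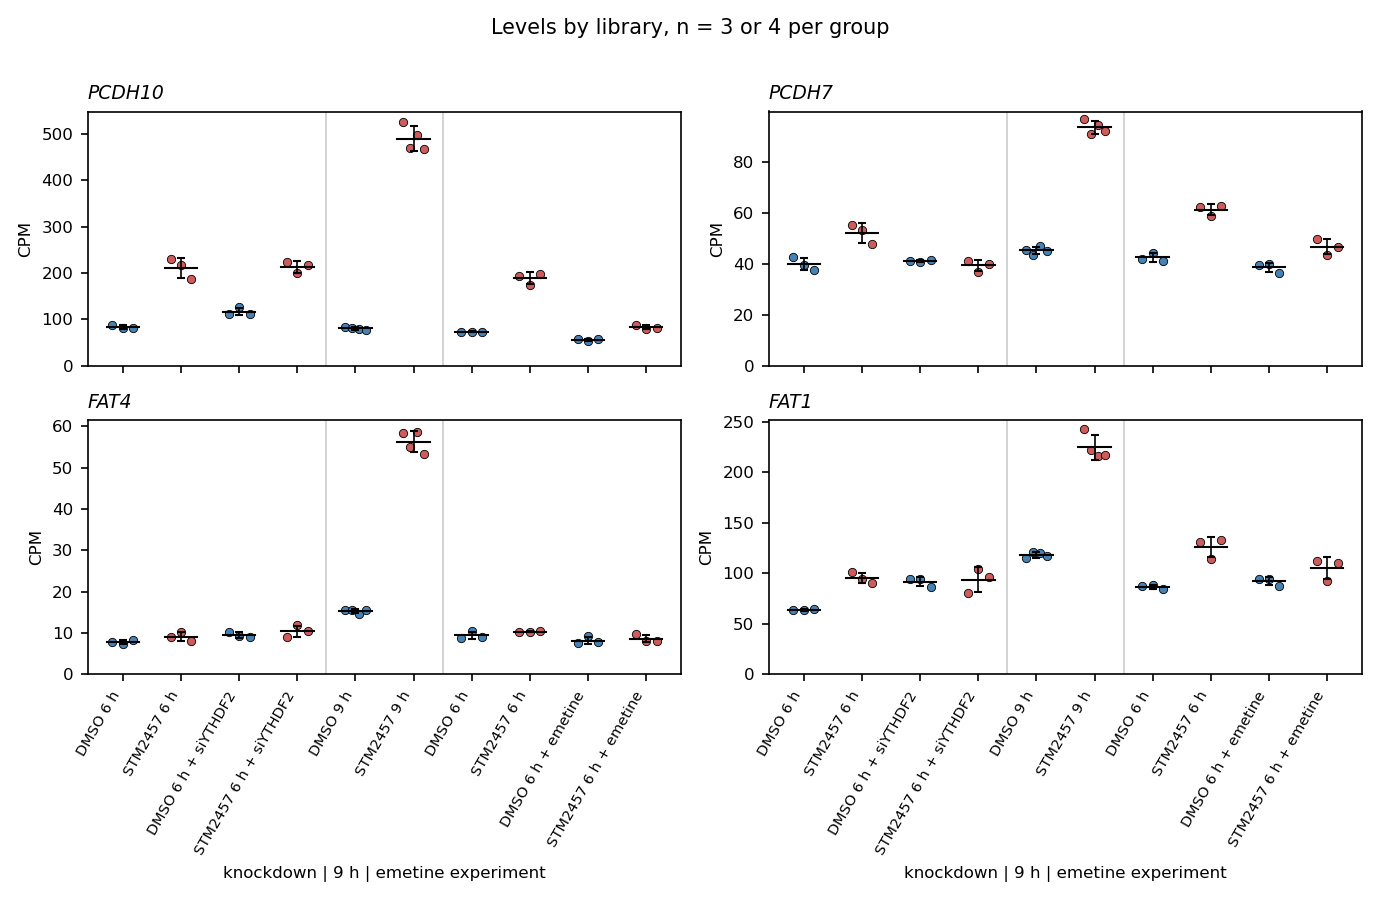
CPM of PCDH10, PCDH7, FAT4 and FAT1 in each library (points; blue DMSO, red STM2457), with the group mean (line) and SD (bar), in the knockdown (left), 9 h (middle) and emetine (right) experiments. FAT4 stands apart in the 9 h STM2457 libraries alone, at 53.3 to 58.6 CPM, while PCDH10 is raised by STM2457 in each experiment.

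Most clustered protocadherins fell. In the knockdown experiment 0 of 10 were higher and 6 lower (median log2 change -1.12), and in the emetine experiment 0 of 7 tested were higher and 5 lower (median -0.77). No clustered member was higher in either experiment at an unadjusted p below 0.05, nor by DESeq2. PCDHGC3, at chr5:141475947-141512979 on the plus strand, was at 6.32, 4.96 and 5.65 CPM in DMSO and at 1.82, 2.06 and 1.46 CPM with STM2457 in the knockdown experiment. It was at 6.61, 5.46 and 5.21 CPM in DMSO and at 2.16, 1.70 and 1.83 CPM with STM2457 in the emetine experiment. All STM2457 libraries lay below all DMSO libraries, with log2 changes of -1.66 ± 0.14 (adjusted p = 2.7e-08), or 3.16-fold lower, and -1.61 ± 0.15 (adjusted p = 3.4e-11). PCDHGC3 is expressed in many tissues besides the nervous system.

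PCDHGC4, a gamma isoform needed for neuron survival, changed by -1.27 ± 0.14 and -0.77 ± 0.18 on the log2 scale in the 2 experiments. PCDHGA11 changed by -0.73 ± 0.09 and -0.49 ± 0.12, and PCDHGB7, at no more than 37 reads in any library, by -1.41 ± 0.32 and -1.87 ± 0.44. PCDHGA7 was at -0.53 ± 0.26 (adjusted p = 0.15) and 0.07 ± 0.39 (adjusted p = 0.89), and PCDHGA6 at -1.16 ± 0.48 (adjusted p = 0.059) in the knockdown experiment. Of the beta cluster genes, which have a single exon each, PCDHB14 fell by 1.56 ± 0.36 and PCDHB15 by 1.08 ± 0.40 on the log2 scale in the knockdown experiment, and PCDHB2 by 0.89 ± 0.34 in the emetine experiment. PCDHB14 and PCDHB15 had at most 19 and 48 reads in any library. The PCDHB15 call was lost without DMSO replicate 1 or 3 or any STM2457 replicate (-0.83 to -1.15), and the PCDHB2 call without DMSO replicate 1 or 3 or STM2457 replicate 1 or 2 (-0.69 to -0.89). DESeq2 called neither (adjusted p = 0.11 and 0.092), and PCDHB15 was not called without the low-count filter either (0.061).

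**Figure D3:**
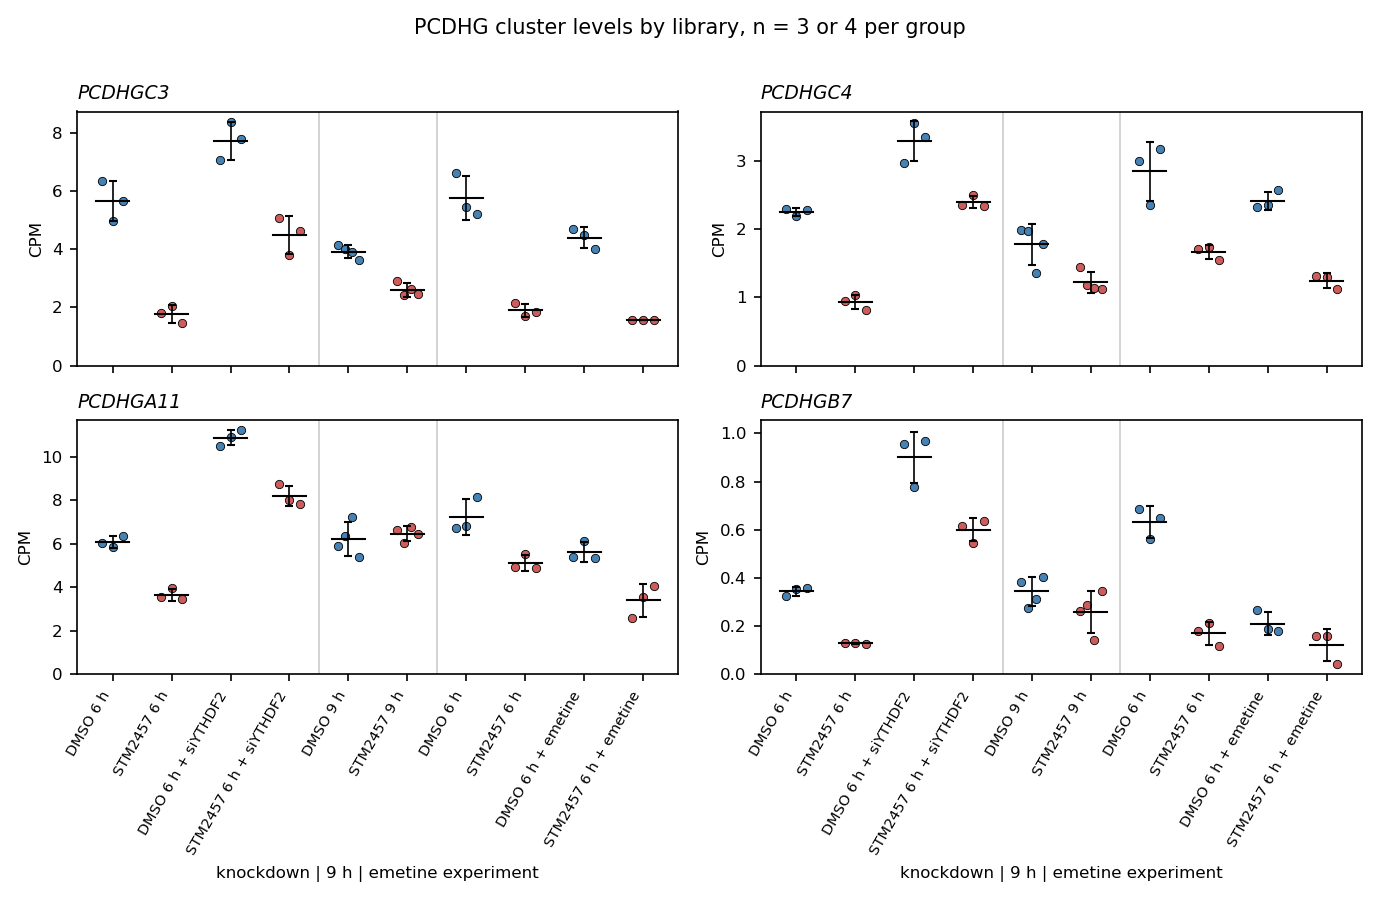
CPM of PCDHGC3, PCDHGC4, PCDHGA11 and PCDHGB7 in each library (points; blue DMSO, red STM2457), with the group mean (line) and SD (bar), in the knockdown (left), 9 h (middle) and emetine (right) experiments. STM2457 libraries of PCDHGC3 lie below their DMSO libraries in every pair of groups, and the mean of each siRNA group lies above that of the matching group without siRNA.

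Few cadherins proper passed the threshold at 6 h. In the knockdown experiment 0 of 11 were higher and 2 lower, against 22.9% and 22.1% of all genes. In the emetine experiment 1 was higher and 1 lower, against 26.0% and 21.9%. Their log2 changes ran from -0.46 to 0.20 and from -0.95 to 0.48, in that order. CDH10, CDH22 and CDH26 had few reads, and a missing call for them does not show that they did not change. CDH2, which is at chr18:27950966-28177446 on the minus strand, was at -0.05 ± 0.06 on the log2 scale in the knockdown experiment (adjusted p = 0.49) and at 0.12 ± 0.04 in the emetine experiment. The latter call was lost without DMSO replicate 1 (0.09) or 2 (0.09) or STM2457 replicate 1 (0.08) or 3 (0.08), and the value turned to -0.04 and -0.01 under ribosomal protein and spike-in scaling. CDH1 fell in the knockdown experiment (log2 change -0.41 ± 0.15), as did CDH24 (-0.23 ± 0.08). CDH22 fell in the emetine experiment (-0.95 ± 0.39, at most 41 reads), and its call was lost without DMSO replicate 2 or 3 or STM2457 replicate 1 or 2 (-0.72 to -0.92), by DESeq2 (adjusted p = 0.11) and without the low-count filter (adjusted p = 0.061).

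At 9 h more members were higher than lower. PCDH10 was 6.09-fold, FAT4 3.66-fold and PCDH7 2.07-fold higher with STM2457. In all, 20 of 34 members tested were higher and 3 lower, where 32.2% of 15834 genes were higher and 32.5% lower. The members' median log2 change was 0.24, against -0.00 over all genes. The 3 members that fell were PCDHGC3, PCDHGC4 and CELSR3.

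PCDH10 was at 83.0, 82.1, 79.2 and 77.5 CPM in DMSO and at 525, 470.0, 498 and 467 CPM with STM2457 (log2 change 2.61 ± 0.04, adjusted p = 9.8e-25). FAT4, a receptor for DCHS1 at chr4:125316399-125492932, was at 15.6, 15.5, 14.7 and 15.6 CPM in DMSO and at 58.4, 55.0, 58.6 and 53.3 CPM with STM2457 (log2 change 1.87 ± 0.05, adjusted p = 1.7e-20). FAT1 was at 115, 121, 119.9 and 117 CPM in DMSO and at 243, 222, 216 and 217 CPM with STM2457 (log2 change 0.93 ± 0.04). For each of these genes the lowest STM2457 library was above the highest DMSO library. PCDH7 changed by 1.05 ± 0.04, PCDH18 by 0.68 ± 0.07, PCDH9 by 0.58 ± 0.03, PCDH17 by 0.39 ± 0.07 and PCDH19 by 0.21 ± 0.08 on the log2 scale, so that 6 of 7 single protocadherins tested rose and PCDH1 (0.02 ± 0.12, adjusted p = 0.91) did not pass.

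CDH1 rose at 9 h by 0.69 ± 0.11 on the log2 scale, from 3.45 to 4.04 CPM over the DMSO libraries to 5.34 to 7.29 CPM over the STM2457 libraries. CDH2 was at 0.07 ± 0.04 (adjusted p = 0.089). CELSR1 (0.47 ± 0.04), CELSR2 (0.29 ± 0.04) and DCHS1 (0.22 ± 0.08) rose, and FAT3 rose by 0.24 ± 0.08. CELSR3 fell by 0.22 ± 0.06, a call that ribosomal protein scaling ended (-0.04, adjusted p = 0.67). Among the clustered genes 3 of 8 tested rose (PCDHB2 by 0.76 ± 0.19, PCDHA10 by 0.61 ± 0.20 and PCDHGA7 by 0.56 ± 0.24) and 2 fell (4 and 1 with ribosomal protein scaling, which turned their median log2 change from -0.06 to 0.12; 1 and 2 by DESeq2). Over all genes at 9 h, 32.2% were higher and 32.5% lower. PCDHGC3 was at 4.14, 4.01, 3.90 and 3.62 CPM in DMSO and at 2.92, 2.42, 2.62 and 2.45 CPM with STM2457 (log2 change -0.60 ± 0.11). PCDHGC4 changed by -0.56 ± 0.17 (-0.38, adjusted p = 0.057, with ribosomal protein scaling).

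**Figure D4:**
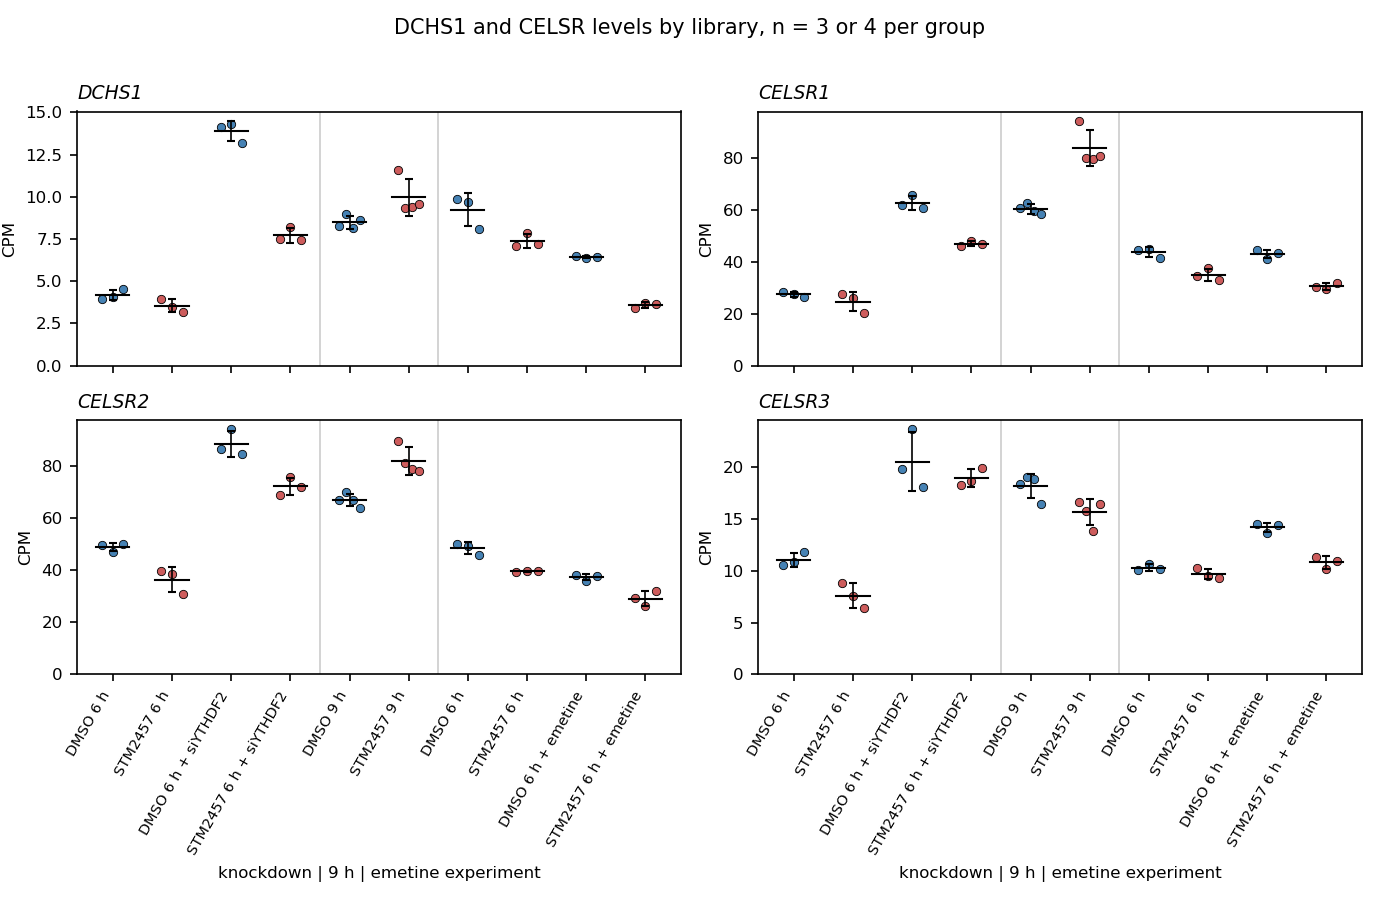
CPM of DCHS1, CELSR1, CELSR2 and CELSR3 in each library (points; blue DMSO, red STM2457), with the group mean (line) and SD (bar), in the knockdown (left), 9 h (middle) and emetine (right) experiments. In the knockdown experiment all siRNA libraries of the 4 genes lie above all libraries without siRNA.

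Over the 3 STM2457 experiments, which share no library, 32 members were tested in each. FAT1, FAT3, PCDH7, PCDH10 and PCDH18 were higher in all 3, PCDHGC3 and PCDHGC4 were lower in all 3, and CDH3, CDH4, CDH10, CDH26 and PCDH1 passed in none. Another 8 were higher at 9 h with no call at 6 h in either experiment (CDH12, CDH15, CDH23, FAT4, PCDH17, PCDH19, PCDHA10 and PCDHGA7). CDH1, CDH24, CELSR1, CELSR2, DCHS1 and PCDHB2 were called higher at 9 h and lower in at least 1 of the 6 h experiments. The share of all genes with each of these patterns was not computed. The counts therefore do not show whether any pattern was more common among the members than among other genes.

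The difference between times was tested in a fit of the 20 libraries without siRNA or emetine. Against the knockdown experiment, the STM2457 effect at 9 h was higher for 19 of 38 members and lower for 1, where 13.8% of all genes were higher and 23.3% lower. Against the emetine experiment it was higher for 16 and lower for 1, where 10.4% were higher and 15.4% lower. Among members past the threshold, FAT4 had the largest difference of log2 changes from the knockdown experiment, 1.64 ± 0.10 (adjusted p = 1.4e-12), followed by PCDH10 at 1.23 ± 0.08, PCDHB2 at 1.14 ± 0.36, CDH1 at 1.07 ± 0.20 and PCDHGC3 at 1.03 ± 0.18, whose fall was smaller at 9 h. Against the emetine experiment FAT4 (1.74 ± 0.11), PCDH10 (1.24 ± 0.08) and PCDHB2 (1.65 ± 0.37) also differed. FAT3 went the other way, with differences of -0.35 ± 0.13 and -0.55 ± 0.14. The 9 h libraries are a separate experiment, so time and experiment cannot be told apart.

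The FAT3 difference from the knockdown experiment lost its call without DMSO 6 h replicate 3 (-0.28), STM2457 6 h replicate 1 (-0.30) or 2 (-0.31), DMSO 9 h replicate 1 (-0.32) or 3 (-0.31), or STM2457 9 h replicate 3 (-0.32) or 4 (-0.32), and turned to 0.12 under ribosomal protein scaling. PCDHB15 (2.19 ± 0.75) and PCDHGB7 (1.46 ± 0.48) differed from the emetine experiment, on few reads. Both calls were lost without single libraries: PCDHB15 without STM2457 9 h replicate 4, any DMSO 6 h replicate or STM2457 6 h replicate 1 or 2 (1.64 to 2.24), and PCDHGB7 without DMSO 9 h replicate 2 or 3, STM2457 9 h replicate 1, 2 or 4, DMSO 6 h replicate 1 or 3 or STM2457 6 h replicate 1 or 3 (1.26 to 1.51). PCDHGB7 was not called without the low-count filter (adjusted p = 0.13).

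**Figure D5:**
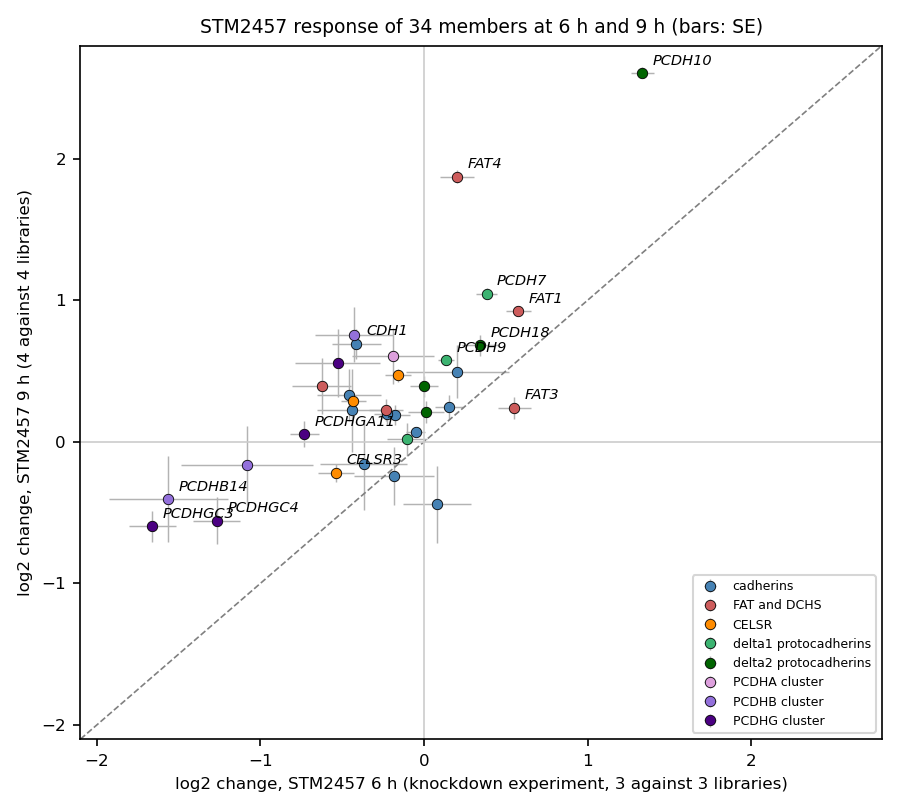
Log2 change with STM2457 at 6 h in the knockdown experiment (horizontal) and at 9 h (vertical) for the 34 members tested in both, with SE bars; the dashed line marks equal changes. PCDH10 (1.34 and 2.61) and FAT4 (0.20 and 1.87) lie farthest above the line and PCDHGC3 (-1.66 and -0.60) lies at the far left; ribosomal protein scaling moved the median of all genes to -0.28 on the horizontal axis and to 0.18 on the vertical one.

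Scaling bears on these directions, since it moves every gene of a comparison together. With ribosomal protein genes as the reference, the median log2 change of all genes was -0.28 at 6 h in the knockdown experiment, 0.18 at 9 h and -0.16 at 6 h in the emetine experiment; with spike-in RNA it was -0.39 and -0.13 at 6 h. The split of all genes in the knockdown experiment went from 3814 higher and 3677 lower to 1253 and 7282 with ribosomal protein scaling and to 398 and 5023 with spike-in scaling, and at 9 h from 5104 and 5140 to 7653 and 2335 with ribosomal protein scaling. For the members it went from 6 higher and 11 lower to 2 and 20, and to 1 and 18, in the knockdown experiment. PCDH10 stayed higher and PCDHGC3 lower under each of these scalings in each STM2457 experiment.

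YTHDF2 siRNA raised more members than it lowered. The planar polarity genes DCHS1, CELSR1, CELSR2 and CELSR3 and 5 of the 6 gamma protocadherins rose, and 4 weakly expressed genes and PCDH9 and PCDH1 were among those that fell. Of 38 members 21 were higher and 8 lower, where 33.1% of all genes were higher and 29.3% lower, with a median log2 change of 0.32 against 0.02. This comparison uses the same DMSO libraries as the 6 h STM2457 comparison of the knockdown experiment.

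DCHS1 was at 3.96, 4.04 and 4.55 CPM without siRNA and at 14.2, 14.3 and 13.2 CPM with it (log2 change 1.73 ± 0.09, adjusted p = 9.5e-12), or 3.32-fold. CELSR1, at chr22:46360834-46537170 on the minus strand, was at 28.4, 27.7 and 26.5 CPM without siRNA and at 61.9, 65.8 and 60.7 CPM with it (log2 change 1.19 ± 0.08). Neither gene had overlapping groups. CELSR2 rose by 0.85 ± 0.07, CELSR3 by 0.89 ± 0.10, DCHS2 by 0.69 ± 0.16, FAT1 by 0.52 ± 0.07 and FAT4 by 0.27 ± 0.10 on the log2 scale. FAT3 fell by 0.45 ± 0.11, so that 7 of the 8 FAT, DCHS and CELSR members rose and 1 fell, with 6 and 1 under ribosomal protein scaling and 6 and 0 under spike-in scaling.

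Among the clustered protocadherins 6 of 10 rose and 1 fell (median log2 change 0.61), against 4 and 0 under spike-in scaling. PCDHGC3 rose from 6.32, 4.96 and 5.65 CPM to 7.05, 8.36 and 7.76 CPM (log2 change 0.46 ± 0.12). PCDHGB7 changed by 1.37 ± 0.21, PCDHGA7 by 1.04 ± 0.21, PCDHGA11 by 0.84 ± 0.08 and PCDHGC4 by 0.55 ± 0.12, and PCDHGA6 was at 0.67 ± 0.36 (adjusted p = 0.12). PCDHB15 rose by 1.86 ± 0.26, from 0.188 to 0.349 CPM over the libraries without siRNA to 0.827 to 1.10 CPM with it. PCDHB14 fell by 0.83 ± 0.32, a call lost without DMSO replicate 2 (-0.74) or siRNA replicate 1 (-0.68) or 3 (-0.82), by DESeq2 (adjusted p = 0.21) and without the low-count filter (adjusted p = 0.093).

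Single protocadherins went both ways, with 3 higher and 3 lower of 9, near the shares of all genes (33.1% higher and 29.3% lower). PCDH10 rose by 0.48 ± 0.07 on the log2 scale, to 111, 126 and 113 CPM, and PCDH18 and PCDH19 each rose by 0.31 ± 0.11. PCDH9 fell by 0.53 ± 0.05, from 133, 123 and 119 CPM to 87.5, 85.3 and 86.8 CPM, PCDH1 by 0.70 ± 0.13 and PCDH17 by 0.35 ± 0.09. PCDH7 was at 0.04 ± 0.06 (adjusted p = 0.60).

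Of the 11 cadherins 5 rose and 3 fell, where 33.1% of all genes were higher and 29.3% lower. CDH2 rose by 0.33 ± 0.06, CDH24 by 0.91 ± 0.08, CDH23, a hair bundle cadherin, by 0.74 ± 0.08 and CDH12 by 0.48 ± 0.08, and CDH15 (M-cadherin, of muscle) by 1.64 ± 0.26 at 0.235 to 1.05 CPM over both groups. CDH10 was at 0.747, 0.964 and 0.934 CPM without siRNA and at 0.155, 0.183 and 0.131 CPM with it (log2 change -2.46 ± 0.29, adjusted p = 5.6e-07). CDH26 fell by 1.45 ± 0.29 and CDH22 by 1.32 ± 0.30. CDH10, CDH22 and CDH26 had at most 41, 41 and 44 reads in any library. CDH1 was at 0.14 ± 0.14 (adjusted p = 0.40).

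In cells with YTHDF2 siRNA, STM2457 raised PCDH10 alone among the members and lowered 13 of 38, where 15.5% of all genes were higher and 15.4% lower. PCDH10 was at 111, 126 and 113 CPM in DMSO and at 223, 199 and 216 CPM with STM2457 (log2 change 0.87 ± 0.07). At an unadjusted p below 0.05 CDH10 was also higher (0.94 ± 0.36, adjusted p = 0.056). DCHS1 was at 14.2, 14.3 and 13.2 CPM in DMSO and at 7.48, 8.24 and 7.45 CPM with STM2457 (log2 change -0.85 ± 0.08, adjusted p = 2e-07). CELSR1 (-0.42 ± 0.07), CELSR2 (-0.29 ± 0.07) and DCHS2 (-0.63 ± 0.16) fell with it, and FAT1 (0.03 ± 0.07), FAT3 (0.03 ± 0.12) and PCDH7 (-0.06 ± 0.06) did not pass.

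Clustered protocadherins fell in these cells too, 8 of 10, with a median log2 change of -0.75. PCDHGC3 went from 7.05, 8.36 and 7.76 CPM to 5.07, 3.79 and 4.63 CPM (-0.78 ± 0.12). PCDHB14 fell by 1.77 ± 0.49, PCDHB15 by 1.23 ± 0.24, PCDHA10 by 0.79 ± 0.25 and PCDHGA7 by 0.71 ± 0.20 on the log2 scale. Calls lost without 1 library were those of PCDHB14 (DMSO with siRNA replicate 2, -1.53), PCDHGA7 (DMSO with siRNA replicate 1, -0.60) and PCDHA10 (DMSO with siRNA replicate 2 or 3 or STM2457 with siRNA replicate 2 or 3, -0.62 to -0.76). By DESeq2, 4 of the 10 fell, and PCDHB14 (adjusted p = 0.056), PCDHA10 (0.074) and PCDHGA7 (0.11) were not called.

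The STM2457 effect with siRNA minus that without it was tested as an interaction. It was above 0 for 3 of 38 members and below 0 for 6, where 1.78% of all genes were above and 6.93% below. PCDHGC3 (difference of log2 changes 0.88 ± 0.19, adjusted p = 0.0062) and PCDHGC4 (0.81 ± 0.19, adjusted p = 0.01) fell less with siRNA. PCDH10 (-0.47 ± 0.10, adjusted p = 0.0049), FAT1 (-0.55 ± 0.10, adjusted p = 0.002), PCDH7 (-0.44 ± 0.09), PCDH9 (-0.27 ± 0.07) and FAT3 (-0.52 ± 0.16), which were higher with STM2457 in cells without siRNA, had lower changes with it. Of these, PCDH10 was still called higher with siRNA, FAT1, FAT3 and PCDH7 had no call, and PCDH9 was called lower (-0.14 ± 0.05). DCHS1 fell more with siRNA (-0.61 ± 0.13). None of the 38 differences passed with ribosomal protein or spike-in scaling, which called 9 above and 120 below 0, and 0 and 0, over all genes, although the values of the named members kept their sign (PCDHGC3 0.95 and 0.92, PCDH10 -0.41 and -0.43). Differences for CDH10 (1.37 ± 0.42) and FAT3 lost their calls without each of 10 of the 12 libraries, at 1.24 to 1.53 and -0.40 to -0.56. CDH10 also lost its call without the low-count filter (adjusted p = 0.072) and FAT3 by DESeq2 (adjusted p = 0.052).

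Emetine for 2 h, without STM2457, gave 6 of 34 members higher and 12 lower, where 33.9% of all genes were higher and 28.3% lower. PCDH18 rose from 5.53 to 7.49 CPM over the DMSO libraries to 14.4 to 16.2 CPM over the emetine libraries (log2 change 1.27 ± 0.10, adjusted p = 1.1e-12), or 2.41-fold, with no overlap. CELSR3 rose by 0.46 ± 0.07, FAT3 by 0.29 ± 0.12, PCDH17 by 0.24 ± 0.08, PCDH9 by 0.17 ± 0.04 and CDH26 by 0.71 ± 0.31. Lower were PCDHGB7 (-1.57 ± 0.41), CDH4 (-1.13 ± 0.35), DCHS1 (-0.52 ± 0.10), PCDH19 (-0.52 ± 0.10), PCDHGC3 (-0.40 ± 0.12), PCDH10 (-0.39 ± 0.05), CELSR2 (-0.37 ± 0.05) and CDH2 (-0.36 ± 0.04).

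These directions depend on the scaling. Ribosomal protein and spike-in scaling moved the all-gene median from 0.04 to 0.48 and 0.52 on the log2 scale. The members' median moved from -0.13 to 0.31 and 0.35, and 14 of 34 members were higher and 1 lower in both cases. Over all 15817 genes, 11514 and 11558 were higher and 402 and 227 lower. The share of members higher thus stayed below that of all genes. PCDH18 was at 1.71 and 1.76 with these scalings and PCDHGB7 at -1.14 and -1.10, both past the threshold. PCDH10 turned to 0.05 and 0.10 and PCDHGC3 to 0.04 and 0.08, DCHS1 moved to -0.09 and -0.04, PCDH19 to -0.08 and -0.04 and CDH4 to -0.69 and -0.64, none past the threshold. The calls of CDH26 (without any DMSO replicate, or emetine replicate 1 or 2, 0.53 to 0.80), FAT3 (without DMSO or emetine replicate 1 or 2, 0.23 to 0.26), PCDH17 (without DMSO replicate 2, 0.17) and CDH4 (without emetine replicate 2, -0.83) each rested on single libraries. DESeq2 did not call CDH26 (adjusted p = 0.14), FAT3 (0.14) or PCDH17 (0.061), and without the low-count filter CDH26 (0.055) and FAT3 (0.051) were not called.

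In the presence of emetine, STM2457 raised 4 of 34 members and lowered 8, where 21.6% of all genes were higher and 16.2% lower. PCDH10 was at 56.6, 53.2 and 57.4 CPM with emetine alone and at 87.6, 78.8 and 82.4 CPM with both agents (log2 change 0.57 ± 0.05, adjusted p = 5.8e-12). FAT3 (0.56 ± 0.11), PCDH7 (0.27 ± 0.05; 0.19, adjusted p = 0.088, with spike-in scaling) and FAT1 (0.19 ± 0.05) rose. The FAT1 call was lost without DMSO with emetine replicate 3 (0.15) or STM2457 with emetine replicate 1 (0.14) or 3 (0.15), and under ribosomal protein (0.08) and spike-in scaling (0.11). PCDHGC3 was at 4.68, 4.49 and 3.99 CPM with emetine alone and at 1.56, 1.58 and 1.56 CPM with both agents (-1.48 ± 0.16), and PCDHGC4 (-0.95 ± 0.19) and PCDHGA11 (-0.73 ± 0.14) also fell. DCHS1 (-0.84 ± 0.11), PCDH9 (-0.53 ± 0.04), CELSR1 (-0.49 ± 0.05), CELSR3 (-0.39 ± 0.08) and CELSR2 (-0.36 ± 0.06) completed those that fell.

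The STM2457 effect with emetine minus that without it was below 0 for 6 of 34 members, where 11.1% of all genes were below and 6.71% above. It was above 0 for 0 members, also at an unadjusted p below 0.05 under edgeR and by DESeq2. Among those past the threshold, PCDH10 had the largest difference of log2 changes (-0.80 ± 0.06, adjusted p = 6.4e-11), and PCDH9 followed at -0.58 ± 0.06 (adjusted p = 6.9e-09), then DCHS1 (-0.51 ± 0.15), PCDH18 (-0.47 ± 0.15), FAT1 (-0.35 ± 0.08) and PCDH7 (-0.25 ± 0.07). PCDH9 was at 120, 119 and 130 CPM in DMSO, 127, 123 and 131 CPM with STM2457, 134, 138 and 142 CPM with emetine and 102, 89.1 and 94.4 CPM with both agents. The lowest PCDH9 levels were thus those with both agents. PCDHGC3 had a difference of 0.13 ± 0.23 (adjusted p = 0.77). Ribosomal protein and spike-in scaling ended the calls of DCHS1 (-0.45 and -0.46) and PCDH18 (-0.41 and -0.42), and that of PCDH18 was lost without DMSO replicate 1 (-0.45) or 2 (-0.36), STM2457 replicate 1 (-0.34), DMSO with emetine replicate 3 (-0.44) or STM2457 with emetine replicate 2 (-0.37). The counts of members below 0 under these scalings, given in the closing section, show that further calls were lost. Those of FAT1 and PCDH7 may therefore not hold under them.

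A long coding exon is common to part of the family and was not used to choose it. A coding exon of over 2000 bases was present in 27 of 38 members (71.1%), against 3.82% of the 13557 protein coding genes tested. All 19 protocadherins and all 8 FAT, DCHS and CELSR members had one, and 0 of the 11 cadherins did, whose longest coding exon was 569 bases. At 6 h in the knockdown experiment 6 of those 27 members were higher (22.2%) and 9 lower (33.3%), while of 486 other genes with such an exon 45.5% were higher and 17.7% lower. At 9 h 15 of 23 such members were higher (65.2%), against 73.9% of 483 other genes and 34.7% of all protein coding genes. With YTHDF2 siRNA 16 of 27 were higher (59.3%), against 44.9% and 37.0%. These shares are descriptions without a test. GGACT per kb of coding sequence and the log2 change had a Spearman rho of 0.06 across 38 members at 6 h and of -0.28 across 34 members at 9 h, and genes are not independent replicates.

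PCDH10-DT, the long noncoding RNA that starts head to head with PCDH10, was chosen after its values were seen. It changed by 0.73 ± 0.15 at 6 h in the knockdown experiment, 0.68 ± 0.25 at 6 h in the emetine experiment and 1.77 ± 0.12 at 9 h on the log2 scale, all higher with STM2457. The emetine experiment value rests on 21 to 44 reads per library. In cells with YTHDF2 siRNA, STM2457 raised it by 0.61 ± 0.18. In the presence of emetine it was at 0.08 ± 0.24 with STM2457 (adjusted p = 0.83), where PCDH10 rose. Its STM2457 effect with emetine minus that without did not pass the interaction test (-0.60 ± 0.35, adjusted p = 0.27). With YTHDF2 siRNA PCDH10-DT fell by 0.67 ± 0.17, where PCDH10 rose. It was at 1.22, 1.26, 1.25 and 1.56 CPM in the 9 h DMSO libraries and at 4.76, 4.41, 4.46 and 4.52 CPM with STM2457.

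Partner genes of the family were taken from lists of textbook members, and their counts stand beside the shares of all genes: 22.9% higher and 22.1% lower at 6 h in the knockdown experiment, 32.2% and 32.5% at 9 h, and 33.1% and 29.3% with YTHDF2 siRNA. With ribosomal protein scaling, 1253 of 16662 genes were higher and 7282 lower at 6 h in the knockdown experiment. At 9 h 7653 of 15834 were then higher and 2335 lower, and with YTHDF2 siRNA 4605 of 16662 were higher and 3974 lower. Spike-in scaling gave 398 and 5023 at 6 h in the knockdown experiment and 2653 and 2229 with the siRNA. Rescaled counts of every list stand beside these. The lists are short, and no list was tested against other genes. Of 18 Hippo pathway genes, which act downstream of FAT4 and of cell contact, 11 were higher and 3 lower at 9 h (15 and 2 with ribosomal protein scaling), and 8 and 4 at 6 h in the knockdown experiment (2 and 7 with ribosomal protein and 1 and 4 with spike-in scaling). LATS2, a kinase that restrains YAP1, was 1.27 ± 0.06 higher at 9 h, 1.30 ± 0.05 higher at 6 h and 1.58 ± 0.05 higher with YTHDF2 siRNA on the log2 scale. NF2, which activates the LATS kinases, fell by 1.59 ± 0.05 with the siRNA, where 7 Hippo genes were higher and 9 lower (3 and 8 with ribosomal protein and 3 and 6 with spike-in scaling).

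Of 8 catenins and armadillo partners tested, which tie classical cadherins to actin, 4 were lower at 6 h in the knockdown experiment, and 1 was higher and 4 lower at 9 h. With ribosomal protein scaling the 9 h counts were 3 and 2. JUP (plakoglobin) fell by 0.60 ± 0.06 at 6 h, 0.60 ± 0.04 at 9 h and 1.00 ± 0.06 with YTHDF2 siRNA. CTNNB1 (beta-catenin) fell by 0.15 ± 0.03 at 9 h, and was at 0.04 (adjusted p = 0.44) with ribosomal protein scaling. Among 4 nectins and afadin tested, NECTIN3 rose by 0.64 ± 0.06 at 6 h, 0.74 ± 0.04 at 9 h and 0.55 ± 0.06 with the siRNA.

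Of 14 planar cell polarity and Fat-Dachsous partners, 5 were higher and 2 lower at 9 h (11 and 2 with ribosomal protein scaling) and 7 and 4 with YTHDF2 siRNA (6 and 4 with ribosomal protein and 3 and 1 with spike-in scaling). VANGL1, a core polarity protein, rose by 0.74 ± 0.05 at 6 h in the knockdown experiment and 0.72 ± 0.03 at 9 h, and SCRIB fell by 0.44 ± 0.03 at 9 h and rose by 0.48 ± 0.08 with the siRNA. Of 12 regulators of the clustered protocadherins, CTCF and cohesin among them, 3 were higher and 1 lower at 6 h in the knockdown experiment (1 and 8 with ribosomal protein and 0 and 1 with spike-in scaling) and 3 and 7 at 9 h (5 and 1 with ribosomal protein scaling). WAPL, which releases cohesin from chromatin, rose by 0.81 ± 0.05 at 6 h and 0.54 ± 0.03 at 9 h, CTCF rose by 0.37 ± 0.05 at 6 h, and STAG2, a cohesin subunit, fell by 1.06 ± 0.05 with the siRNA. Spike-in scaling ended the 6 h calls of WAPL (0.45, adjusted p = 0.058), CTCF (0.00), VANGL1 (0.38) and NECTIN3 (0.26). Of 9 WAVE complex genes, 1 was higher and 6 lower at 9 h (3 and 1 with ribosomal protein scaling), ABI2 by -0.31 ± 0.03, and of 9 other cadherin-repeat genes tested 4 were higher and 1 lower, DSC2 (desmocollin) by 0.33 ± 0.04.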

How the data were processed

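Poly(A) RNA libraries were prepared with a stranded TruSeq kit after RNeasy Plus extraction, per the labels' protocols. The authors deposited raw read counts per gene for each of the 32 libraries. The submitters' processing notes list STAR 2.7.3a, featureCounts, Subread 2.0.0, Trimmomatic, cutadapt (1.18 and 4.0), SAMtools 1.9 and the genome build GRCh38.p12, while the release of the annotation and the setting for strand were not given in the sources used here. Of 60662 gene IDs, 58587 matched GENCODE 29.

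The knockdown, 9 h and emetine experiments were each fitted with edgeR 4.0.16 (R 4.3.3) quasi-likelihood tests, TMM factors and filterByExpr, p-values adjusted by Benjamini-Hochberg across every tested gene, and calls made below 0.05. Spike-in rows were left out of the tests. CPM values were computed with edgeR's formula on library sizes multiplied by their TMM factors. The differences between 9 h and 6 h came from a joint fit of 20 libraries. All 38 members were tested in the knockdown and joint fits, and 34 in each of the other fits. The scripts were tested on simulated data: in the knockdown design 77.3% of genes changed by 0.5 on the log2 scale and 91.9% of those changed by 1 were recovered, with 5 false calls. Changed genes that the low-count filter removed were left out of these shares. The simulation gave all genes the same small spread, so it does not show the recovery of members with few reads. Alternatives were DESeq2 1.42.0, no low-count filter, scaling to 73 ribosomal protein genes or to 92 spike-in RNAs (knockdown and emetine experiments), a replicate block, leaving out each library, and leaving out the PCDHA and PCDHG genes. Genes were named by a rule: in each comparison the 6 largest changes in each direction past the threshold (4 for differences), FAT1 to FAT4, DCHS1, DCHS2, CELSR1 to CELSR3, CDH2 and PCDH10, up to 4 genes of each partner list by smallest p, and YTHDF2 and METTL3. Other members are named where a count is spelled out. The members and lists were chosen with earlier results of these data known.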

Additional observations from a re-analysis of the deposited data

Results flagged for a closer look

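At 9 h, 5 of 68 groups of 4 libraries tested held 1 library far from the other 3 by Dixon's 95% criterion, and chance flags about 1 in 20. In STM2457 replicate 1, CELSR1 was at 94.28 CPM (others 79.8 to 80.9), DCHS1 at 11.61 (9.34 to 9.59) and PCDH19 at 7.417 (8.39 to 8.42). In DMSO replicate 3, FAT4 was at 14.72 CPM (15.5 to 15.6) and CDH4 at 0.8352 (0.514 to 0.562).

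The remaining entries are differences between effects, tested as interaction terms in edgeR. The STM2457 effect with minus without YTHDF2 siRNA differed from 0, on the log2 scale, for CDH10 (1.375), PCDHGC3 (0.8799), PCDHGC4 (0.8091), DCHS1 (-0.6148), FAT1 (-0.5493), FAT3 (-0.5225) and PCDH10 (-0.47). With minus without emetine it differed for PCDH10 (-0.7954), PCDH9 (-0.5799), DCHS1 (-0.5135) and PCDH18 (-0.4711). At 9 h minus 6 h in the knockdown experiment it differed for FAT4 (1.637), PCDH10 (1.234), PCDHB2 (1.142), CDH1 (1.073) and FAT3 (-0.3487). Against the emetine experiment it differed for PCDHB15 (2.19), FAT4 (1.745), PCDHB2 (1.648), PCDHGB7 (1.459) and FAT3 (-0.5501).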

How the results depend on the processing

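Replicate numbers did not pair the libraries: same-numbered libraries correlated at -0.165 to 0.297 (knockdown), -0.0284 to 0.0866 (9 h) and -0.0885 to 0.125 (emetine). With the replicate block 0 of 22 member counts moved by over 1.5 times, and 94 of 95 named changes stayed on their side of the threshold; the difference of CDH10 with siRNA did not (1.38, adjusted p = 0.066). Without the low-count filter 0 of 22 counts moved by over 1.5 times, but 8 of 95 named calls were lost; DESeq2 lost 11 of 92. With ribosomal protein scaling and spike-in scaling, in that order, the counts became 2 and 1 higher and 20 and 18 lower (STM2457 6 h, knockdown), 14 and 14 higher and 1 and 1 lower (emetine), 0 and 0 above and 0 and 0 below (difference with siRNA), and 3 and 2 below (difference with emetine). Spike-in scaling gave 5 lower with YTHDF2 siRNA and 2 higher for STM2457 within emetine. Ribosomal protein scaling gave 1 lower at 9 h, 31 above and 0 below for 9 h minus 6 h in the knockdown experiment, and 0 below against the emetine experiment. Counts over all genes moved too. With that scaling 10097 of 16720 genes were above and 89 below for 9 h minus 6 h in the knockdown experiment, and 66 below against the emetine experiment. For emetine, 11514 and 11558 of 15817 genes were higher with ribosomal protein and spike-in scaling. DESeq2 gave 8 lower for STM2457 within siRNA and 3 higher for emetine. Without the PCDHA and PCDHG genes, whose shared exons leave their counts uncertain, the counts were 7 lower (6 h, knockdown), 7 lower (within siRNA), 1 above (difference with siRNA), 1 lower (9 h), 5 lower (6 h, emetine experiment) and 5 lower (within emetine). Reversed values were PCDH18 (-0.0066 with spike-in scaling) and PCDH9 (-0.12 and -0.23) at 6 h in the knockdown experiment, CDH2 (-0.044 and -0.011) at 6 h in the emetine experiment, PCDHGC3 (0.042 and 0.082) and PCDH10 (0.051 and 0.098) with emetine, and FAT3 (0.12) at 9 h minus 6 h in the knockdown experiment. The cause was not tested beyond the shift of all genes under each scaling.

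Leaving out each library gave, for members higher and lower, 4 to 7 and 8 to 14 (6 h, knockdown), 19 to 20 and 7 to 8 (siRNA), 1 to 2 and 10 to 12 (STM2457 within siRNA), 2 to 3 and 4 to 8 (difference with siRNA), 17 to 20 and 3 to 3 (9 h), 4 to 6 and 7 to 10 (6 h, emetine experiment), 4 to 7 and 10 to 13 (emetine), 3 to 4 and 8 to 10 (STM2457 within emetine), 0 to 0 and 4 to 7 (difference with emetine), 15 to 21 and 0 to 1 (9 h minus 6 h, knockdown) and 12 to 15 and 1 to 1 (9 h minus 6 h, emetine experiment). The count of 2 within siRNA arose without STM2457 with siRNA replicate 2. Members with few reads have wide errors, and a missing call for them does not show that they did not change.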
